A study of Drosophila melanogaster with 2 samples.

Results

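The DNA replication genes described here are 39 protein-coding genes of *Drosophila melanogaster*, out of 13945 on chromosome arms 2L, 2R, 3L, 3R, 4 and X. They were chosen by name: 38 matched a symbol of the Ensembl release 115 annotation, and CDC45L matched through its RefSeq synonym Cdc45, the name used below. They were set against chromatin immunoprecipitation (ChIP-seq) peaks of CG12768, a MADF-domain protein, in whole adult males of 1 transgenic line. Their age is unknown per the labels. The tagged protein carries C-terminal GFP, and an antibody against GFP was used for the immunoprecipitation. All samples belong to this 1 group, which has 2 biological replicates. There is no second group and no list from flies without the tagged protein was used here, so the values below carry no p-values. The promoter driving the transgene is not given here by any source. In whole flies, a strong peak in a few cells and a weak peak in many cells cannot be told apart. Depth is unknown, since peak lists give no counts of reads.

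Replication starts where the origin recognition complex sits on DNA and loads the ring of MCM helicase proteins. Cdc45 and the GINS complex then join the ring, and the polymerases, the sliding clamp PCNA, its loader and DNA ligase copy and seal the strands. Ribonucleotide reductase makes the deoxynucleotides. In *Drosophila* many of these genes are transcribed together in dividing cells, through E2F sites and through the DNA replication-related element (DRE), which is bound by Dref. Adult flies hold few dividing cells, mostly in the gonads and the gut.

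The sequences that follow are on dm6 from the RefSeq Release 6 genome, written 5′ to 3′ on the strand of the gene. Those of bound genes come first. Promoters with a DRE word and no peak of the authors' thresholded list come after them, and of the bound sequences only that of Psf3 shares this word. Psf3, which encodes a GINS subunit, was the bound gene with a DRE word (TATCGATA, in capitals) beside its summit. Prim1, a primase subunit gene, had an E2F word, here in capitals as the reverse complement of TTTCGCGC, in an intron near its summit. Mcm2, PolD2 and Mcm5 had neither word within 100 bp of the summit, and the capital there marks the summit base.
Psf3, chrX:10385875-10385934, minus strand: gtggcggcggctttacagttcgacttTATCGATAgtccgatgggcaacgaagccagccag
Prim1, chr3L:8340511-8340570, plus strand: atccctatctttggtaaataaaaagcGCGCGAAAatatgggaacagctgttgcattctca
Mcm2, chr3R:8264811-8264870, plus strand: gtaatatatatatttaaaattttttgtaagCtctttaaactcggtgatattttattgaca
PolD2, chr3L:1775520-1775579, plus strand: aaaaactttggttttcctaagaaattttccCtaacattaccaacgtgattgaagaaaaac
Mcm5, chr3R:10788338-10788397, plus strand: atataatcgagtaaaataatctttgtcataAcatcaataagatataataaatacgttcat
The next 6 promoters, of 12 such promoters, hold the same DRE word, in capitals, and no thresholded summit within 500 bp of a start. Orc2, PolA1, Prim2 and Psf1 have a weaker summit there in the pooled or a replicate list. That of Orc2 in replicate 1 is at −197 bp, beside the word at −198 bp.
Orc2, chr3R:13964673-13964702, plus strand: taatttaaattTATCGATAacgtatgcaat
Orc5, chr2L:13829756-13829785, plus strand: ttatttcgttaTATCGATAtttttcgattg
PolA1, chr3R:21671795-21671824, minus strand: cttaacgacacTATCGATAttacattgcaa
Prim2, chr3L:20361600-20361629, minus strand: gagcagaaaacTATCGATAacaactgacac
Gnf1, chr3R:4906545-4906574, plus strand: atttagtgagcTATCGATAacgttcagtgc
Psf1, chr3L:1247739-1247768, minus strand: gaaataccaagTATCGATAccacaagtcga

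Thresholded CG12768 peaks lay at the promoters of some genes of most steps of replication. They lay at none of the 8 listed genes of the clamp, clamp loader, ligase and RPA class, whose RPA genes are RPA2 and RPA3. Of all protein-coding genes 25.9% had such a peak, and in a class of 8 genes 1 gene moves a share widely. A gene was called bound where a summit of the thresholded list of 6066 peaks lay within 500 bp of 1 of its protein-coding transcript starts. This held for 12 of the 39 replication genes (30.8%), against 25.9% of all protein-coding genes, so the share of the list was near that of the genome. The bound genes were Orc1, dup, geminin, Mcm2, dpa, Mcm5, Psf3, CycE, Prim1, PolD1, PolD2 and RnrS. Their strongest summits had a median signal of 285, from 144 at Mcm5 to 668 at dpa, and those of all 3613 bound genes had a median of 259, from 141 to 4032.6. The signal is the authors' own value for each peak, and ranks below count from the strongest peak of a list. The strongest replication gene, dpa, stood at rank 393.

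**Figure D1:**
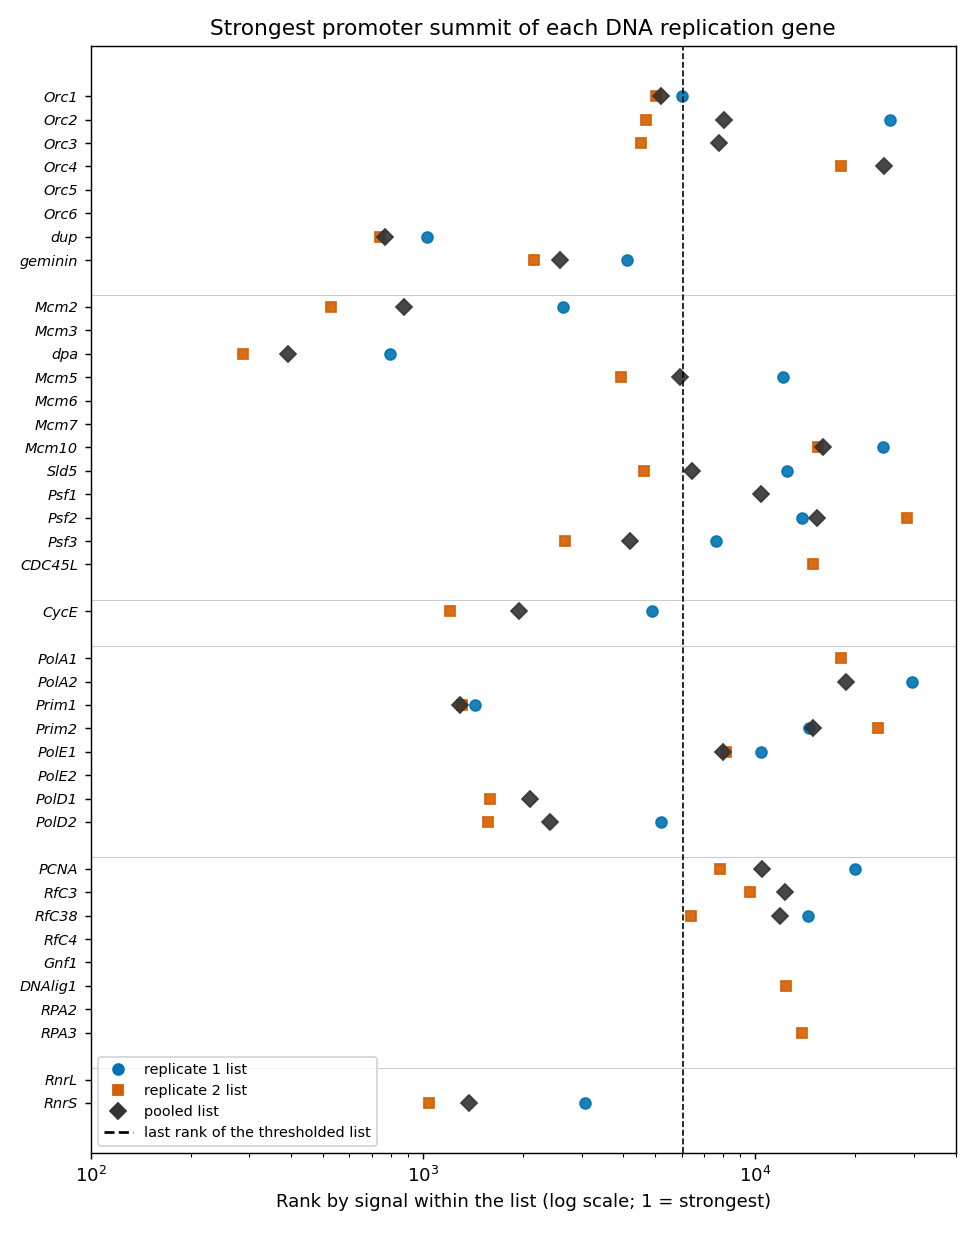
Rank by signal (log scale, 1 is the strongest) of the strongest summit within 500 bp of a start of each of the 39 genes, in the replicate 1, replicate 2 and pooled lists of 30000 peaks each, by class; a gene with no mark has no such summit, and CDC45L is Cdc45. The 12 bound genes have their pooled mark left of the dashed line at rank 6066, the last of the thresholded list, and Mcm3, Mcm6 and Mcm7 have no mark.

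By class, 3 of 8 origin and licensing genes were bound, 4 of 12 helicase genes, 3 of 8 polymerase and primase genes, 0 of 8 listed clamp, loader, ligase and RPA genes, 1 of 2 nucleotide supply genes, and CycE. The share of all genes was 25.9%, and in classes this small 1 gene moves a share widely. The wider lists hold background beside peaks. A summit of the pooled list lay at 25 of 39 genes (64.1%), against 55.8% of all genes. It was 20 of 39 (51.3%), against 52.7% of all genes, in the list of replicate 1, and 27 of 39 (69.2%), against 55.1%, in that of replicate 2. Of the 8 clamp, loader, ligase and RPA genes, 3 had a summit in the pooled list, 2 in that of replicate 1 and 5 (62.5%) in that of replicate 2. Together, 29 of 39 genes had a summit in at least 1 of the 4 lists, against 63.8% of all genes.

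**Figure D2:**
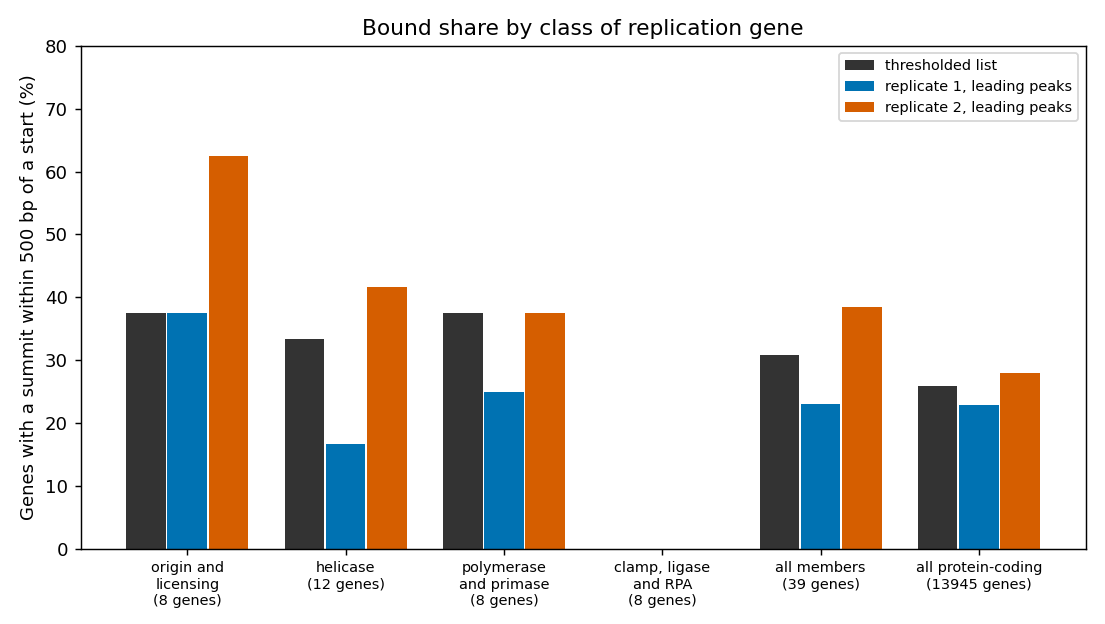
Share of genes (%) with a summit within 500 bp of a start, for the 4 classes of at least 8 genes, all 39 members and all 13945 protein-coding genes, in the thresholded list and in the 6066 leading peaks of each replicate. The clamp, ligase and RPA class has no bar because none of its 8 genes, with RPA2 and RPA3 for RPA, was bound in any of these lists.

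Both licensing genes of the origin class, dup and geminin, were bound, and 1 of the 6 subunit genes of the origin recognition complex. The share of all protein-coding genes was 25.9%, and in groups this small 1 gene moves a share widely. The gene dup encodes Cdt1, which loads the helicase, and geminin encodes the inhibitor of Cdt1. At dup (FBgn0000996) the peak (2R 15380584-15380811) had a signal of 470.3 and rank 769 in the thresholded list, and overlapped peaks of signal 216 (rank 1031) in replicate 1 and 257 (rank 742) in replicate 2. Its summit lay 78 bp upstream of a start, in the 5′ UTR of a longer transcript. At geminin (FBgn0033081, 2R 6656217-6656660) the signal was 248, with 105 (rank 4103) in replicate 1 and 137 (rank 2156) in replicate 2, and the summits of the 3 lists fell between −38 and −34 bp. Both genes were thus marked at the same place in each replicate.

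Orc1 encodes the largest subunit of the origin recognition complex. Its peak (FBgn0286788, 2R 7525501-7525944) was weak, with a signal of 156 at rank 5216, and had its summit 7 bp upstream of the start. It overlapped peaks of signal 81.5 (rank 6018) in replicate 1 and 77.2 (rank 5006) in replicate 2. The other subunit genes were not bound. Orc2 had a pooled summit of signal 115 (rank 8061), which stood at 80.8 (rank 4682) in replicate 2 and 26.9 (rank 25410) in replicate 1. Orc3 had a pooled summit of signal 118 (rank 7797), present in replicate 2 at 82.8 (rank 4513) with no summit of replicate 1 within 500 bp. Orc4 had a summit at ranks 24459 (pooled) and 18131 (replicate 2), and Orc5 and Orc6 had none in any list, their nearest thresholded summits being 5635 and 4058 bp downstream. Orc2 and Orc3 were thus bound in the leading peaks of replicate 2 and not in those of replicate 1.

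Of the 6 subunit genes of the MCM ring 3 were bound, against 25.9% of all genes. The other 3 had no promoter summit in any list, which held for 36.2% of all genes. The strongest peak of all replication genes was at dpa, which encodes Mcm4 (FBgn0015929, 2R 7499886-7500180). Its signal was 668, with 245 (rank 793) in replicate 1 and 430.4 (rank 287) in replicate 2. Its summit lay in the 5′ UTR, 118 bp downstream of the first and nearer of its 2 starts. At Mcm2 (FBgn0014861, 3R 8264759-8264932) the signal was 441 at rank 878, with 136 (rank 2638) in replicate 1 and 307 (rank 528) in replicate 2, and the summit was intergenic at −129 bp. The peak of Mcm5 (FBgn0017577, 3R 10788146-10788589, summit at −156 bp) was the weakest, with a signal of 144 at rank 5922, where the list ends at 141. It overlapped peaks of signal 47.2 (rank 12132) in replicate 1 and 91.5 (rank 3930) in replicate 2. The nearest thresholded summit lay at −1232 bp from Mcm3, 5005 bp from Mcm6 and 21061 bp from Mcm7.

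Of the 4 GINS subunit genes, Psf3 was bound (FBgn0030196, X 10385656-10386099, signal 182, rank 4185, summit at −17 bp). It had signals of 68.6 (rank 7601) in replicate 1 and 119 (rank 2680) in replicate 2. Sld5 came closest of the genes left out, with a pooled summit of signal 136 at rank 6431, just below the last thresholded peak, and signals of 46.4 in replicate 1 and 81.4 in replicate 2. Psf2 had a pooled summit at rank 15285 and Psf1 at rank 10429. Psf1 had no summit in the list of either replicate. Cdc45, which activates the helicase, had a summit at rank 14912 of replicate 2 alone. Its nearest thresholded summit was 941 bp upstream, the closest of those beyond 500 bp. The farthest within that distance were those of CycE at −420 bp and PolD1 at −414 bp. Mcm10, which binds the ring as it is activated, had pooled summits at ranks 15930 and 18786.

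Among polymerase and primase genes, the delta subunit genes PolD1 and PolD2 and the primase gene Prim1 were bound, and PolA1, PolA2, PolE1, PolE2 and Prim2 were not. Subunit genes outside the 39 did not keep this split: the delta gene PolD3 had no summit in any list, and the epsilon gene PolE4 was bound with a signal of 186 (rank 4009). PolD2 encodes the second delta subunit. Its peak (FBgn0027903, 3L 1775328-1775771) had a signal of 259 at rank 2405 and a summit at −83 bp, with signals of 89.7 (rank 5215) in replicate 1 and 170.4 (rank 1566) in replicate 2. PolD1 encodes the catalytic delta subunit, and its peak (FBgn0263600, 3L 15988007-15988450) had a signal of 280.3 at rank 2094. Its summit was far from the start, at −414 bp, and the overlapping peak of replicate 1 (signal 136, rank 2640) had its summit farther still, at −654 bp. The peak of replicate 2 (signal 168, rank 1596) was at −414 bp. PolD1 thus had no summit of replicate 1 within 500 bp of its start, though a peak of each replicate overlapped the thresholded one.

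Prim1 encodes the small primase subunit. Its peak (FBgn0011762, 3L 8340350-8340793) had a signal of 366 at rank 1290, and the replicates were close, with signals of 185 (rank 1431) in replicate 1 and 189 (rank 1309) in replicate 2. The summit was inside the gene, 258 bp downstream of the start in an intron. The genes not bound had weaker summits or none. PolE1, the catalytic epsilon subunit gene, had a pooled signal of 115 (rank 7990), and Prim2 one of 70 (rank 14899). PolA2 had 58.5 (rank 18785), PolA1 had a summit at rank 18148 of replicate 2 alone, and PolE2 had none. The nearest thresholded summit of PolE2 lay at −24827 bp.

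**Figure D3:**
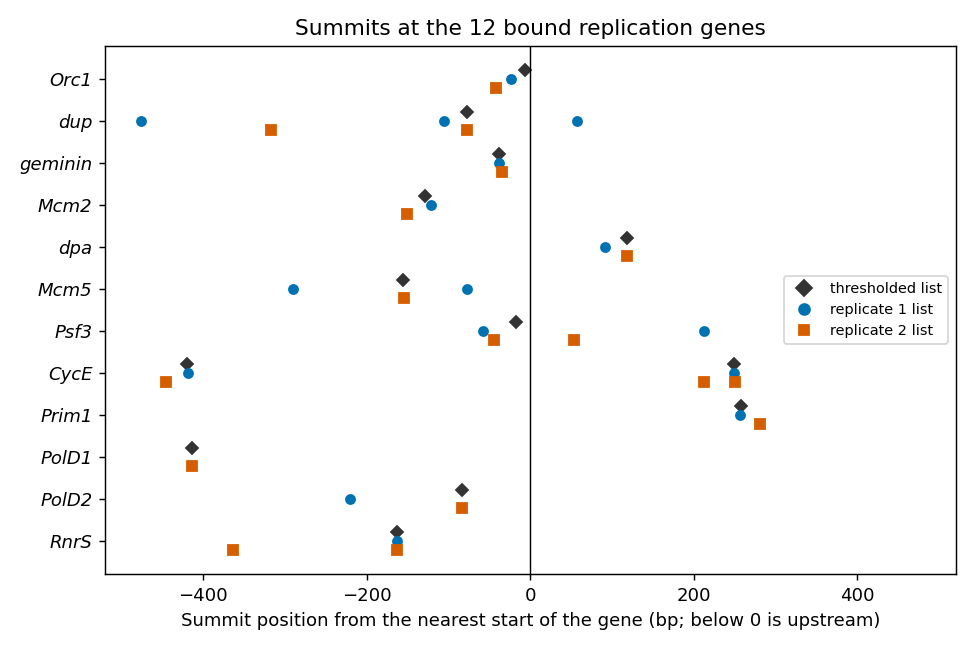
Position (bp) of every summit within 500 bp of the nearest start of the 12 bound genes, below 0 upstream, in the thresholded list and in each replicate's list. Most thresholded summits lie upstream of the start; those of dpa, Prim1 and the weaker CycE peak lie downstream, and PolD1 has no mark of replicate 1.

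The 8 listed genes of the sliding clamp, its loader, the ligase and RPA were not bound, against 25.9% bound of all protein-coding genes. PCNA, the clamp itself, had a summit close to its start, at −17 bp in the pooled list, but of low signal: 93.2 (rank 10450), with 32.1 (rank 19885) in replicate 1 and 56.4 (rank 7805) in replicate 2. The clamp loader genes RfC38 and RfC3 had pooled signals of 84.3 (rank 11851) and 82.2 (rank 12240), and RfC4 and Gnf1 had no summit in any list, with thresholded summits 3306 and 3894 bp downstream. DNAlig1, the replicative ligase gene, had a summit of replicate 2 alone at rank 12363. Of the RPA complex, which coats single-stranded DNA, RPA3 had a summit of replicate 2 alone at rank 13787, and RPA2 had none nearer than 3782 bp in the thresholded list. None of the 8 genes was bound in the leading 6066 peaks of either replicate. RPA1, the large RPA subunit gene and not among the 39, was bound through the peak it shares with Mcm2.

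The ribonucleotide reductase genes differed from each other. RnrS, the small subunit gene, was bound (FBgn0011704, 2R 11985334-11985777), with a signal of 354 at rank 1371. Each list placed its strongest summit at −163 bp, with signals of 124 (rank 3078) in replicate 1 and 216 (rank 1041) in replicate 2. RnrL, the large subunit gene, had no summit in any list, and its nearest thresholded summit was 5893 bp upstream. CycE (FBgn0010382), which encodes the cyclin that drives entry into S phase, was bound at more than 1 of its starts. The stronger peak (2L 15746808-15747251, signal 289.6, rank 1951) lay in an intron, at −420 bp from an internal start, with signals of 93.6 (rank 4877) in replicate 1 and 199 (rank 1205) in replicate 2. The weaker (2L 15747679-15748122, signal 146, rank 5760) lay in the 5′ UTR, 249 bp downstream of the first start. It had signals of 86.4 (rank 5521) in replicate 1 and 62.5 (rank 6793) in replicate 2, so both replicates had the intronic peak as the stronger.

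Most of these peaks were within reach of more than 1 gene. At 9 of the 12 bound genes the strongest summit also lay within 500 bp of the start of another protein-coding gene, against 49.5% of all bound genes, and at 8 of the 9 the neighbour was on the opposite strand. The Mcm2 peak was shared with RPA1, the large RPA subunit gene, from whose start the summit lay at −390 bp. The dpa peak was shared with didum, a myosin V gene, the Psf3 peak with flw, a protein phosphatase gene, and the peaks of RnrS and PolD2 with CG34231 and CG13933. In each of these 5 cases the replication gene had the nearer start. The neighbour was nearer at Mcm5 (Art1, an arginine methyltransferase gene, at −142 bp), dup (SRPK, an SR protein kinase gene, at −32 bp), Prim1 (CG7083, on the same strand, at −213 bp) and PolD1 (Hip14, a palmitoyltransferase gene, at −7 bp). A peak within reach of 2 starts cannot be assigned to 1 of them from these lists. Replication genes often have such neighbours: an opposite-strand start lay within 1000 bp upstream of 24 of 39 (61.5%), against 35.2% of all genes. Of those 24 genes 9 were bound (37.5%), against 42.2% of all genes with such a neighbour, and of the other 15 genes 3 were bound (20.0%), against 17.0%.

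The replicates placed these promoters differently in their rankings. All 12 bound genes had a peak of each replicate overlapping their strongest thresholded peak, and at all 12 the rank was better in replicate 2, with medians of 3590 in replicate 1 and 1437 in replicate 2. Over all bound genes with a peak in both, the rank was better in replicate 2 at 62.5%, with medians of 2979 and 2060. Taken alone through its 6066 leading peaks, replicate 2 had 15 of 39 replication genes bound (38.5%), against 27.9% of all genes, and replicate 1 had 9 of 39 (23.1%), against 22.9%. The 9 genes of replicate 1 were all among the 12, which lost Mcm5, PolD1 and Psf3. Replicate 2 kept the 12 and added Orc2, Orc3 and Sld5. The share was thus near that of all genes in replicate 1 and above it in replicate 2.

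The words known from replication gene promoters were more frequent in the list than in all promoters. Words were searched on both strands from 250 bp before to 50 bp after the gene start. The DRE word TATCGATA, which reads the same on both strands, was in 13 of 39 replication promoters (33.3%), against 9.37% of all promoters of this length. It was in 1 of 12 bound promoters (8.33%), that of Psf3, and in 12 of 27 not bound (44.4%), among them PCNA, Orc2, Orc5, PolA1, Gnf1 and DNAlig1. This contrast depends on the list. Orc2, Orc3 and Sld5, the genes added by the leading peaks of replicate 2, all hold the word. Of the 13 genes with the word 1 was bound (7.69%), against 36.1% of all genes with it. PolA1 held it 3 times, at −6, −59 and −193 bp, and had no thresholded summit within reach.

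E2F words (TTTCCCGC, TTTCGCGC, TTTGCCGC or TTTGGCGC) were in 18 of 39 replication promoters (46.2%), against 6.46% of all promoters. They were in 4 of 12 bound promoters (33.3%), those of Mcm2, Mcm5, Orc1 and RnrS, and in 14 of 27 not bound (51.9%), among them Mcm3, Mcm6, RnrL and Cdc45. Of the 18 genes with such a word 4 were bound (22.2%), against 29.0% of all genes with one. At Orc3 the matches on opposite strands overlapped. Within 100 bp of the summits, an E2F word stood at 4 of the 13 peaks of replication genes (30.8%), against 4.58% of the 3362 thresholded promoter summits. These were at Orc1, 14 bp from the summit, Prim1, 32 bp, dup, 60 bp, and dpa, 67 bp. The words at Prim1, dup and dpa lay outside the promoter window, which was set by the gene start alone. The promoter counts of bound genes therefore leave them out. Within 50 bp an E2F word stood at 2 of the 13 (15.4%), against 2.14%. A DRE word stood at 1 of the 13 peaks (7.69%), that of Psf3, 26 bp from the summit, against 4.55% of promoter summits.

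The core of Motif 1 (GGTCACAC), a word of broadly active fly promoters, was in 7 of 39 replication promoters (17.9%), against 7.71% of all, and in none of the 12 bound. Of the 7 genes with it 0 were bound, against 34.4% of all genes with it. In groups this small 1 gene moves a share widely. The GAGA word GAGAG was in 8 of 39 (20.5%), against 29.8% of all promoters, and in 3 of the 12 bound, with overlapping matches at CycE. Within 100 bp of the summits it stood at 1 of the 13 peaks (7.69%), that of PolD2, against 30.1% of promoter summits. The E-box CACGTG was in none of the 39, against 4.24% of all promoters. A match is only a match of letters, and a promoter without one may still hold a related site.

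**Figure D4:**
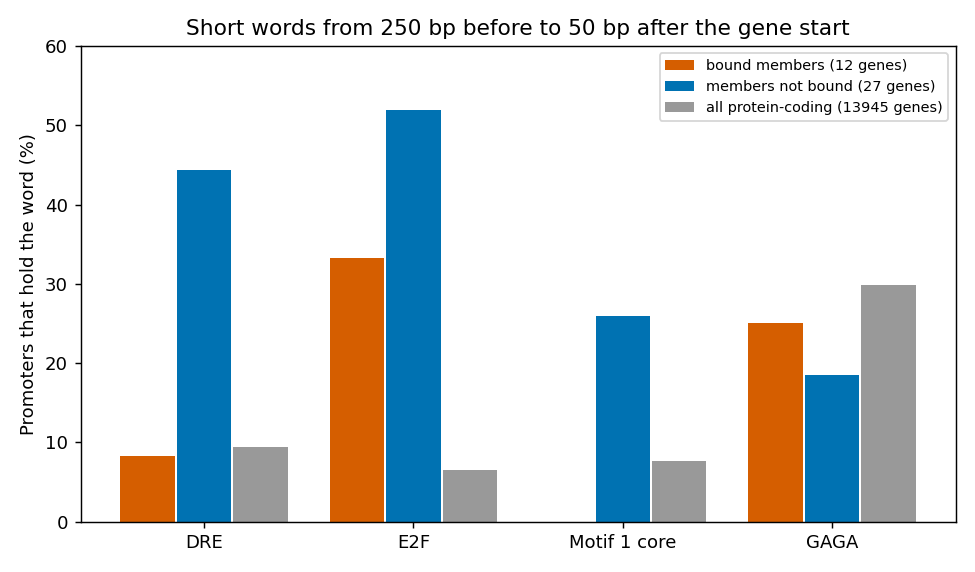
Share of promoters (%) that hold each word from 250 bp before to 50 bp after the gene start, for the 12 bound replication genes, the 27 not bound and all 13945 protein-coding genes. In this window, set by the gene start alone, DRE and E2F words are more frequent in the replication genes that were not bound than in the bound ones. E2F words beside the summits of Prim1, dup and dpa fall outside it. The Motif 1 core is in none of the 12 bound ones and in 7.71% of all promoters.

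Other genes of the pathway were bound about as often. Of 74 such genes in the annotation 20 were bound (27.0%), near the 25.9% of all genes. Of 21 E2F and S phase control genes 6 were bound: Dp (signal 436), E2f1 (371), E2f2 (288) and Cdk1 (264) led, so genes of the E2F factors themselves were among those bound. Of 23 other origin firing and replisome genes 6 were bound, led by Ctf4 (450.1), which joins helicase and polymerase, RPA1 (441, the Mcm2 peak), elg1 (385), whose product unloads the clamp, and Top1 (288), a topoisomerase gene.

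Checkpoint and repair polymerase genes had 4 of 11 bound. Rev1, a translesion polymerase gene, had the strongest peak, with a signal of 666 at rank 397. Its signals were 151 (rank 2197) in replicate 1 and 511 (rank 179) in replicate 2. Rev1 was followed by mei-41 (254), the ATR kinase gene, lok (206), the Chk2 kinase gene, and grp (158), the Chk1 kinase gene. Of 8 nucleotide metabolism genes awd (174) and dUTPase (157) were bound (25.0%). Of 6 chromatin assembly genes Caf1-55 (240.4) was bound (16.7%), and of 5 mitochondrial DNA replication genes mtSSB (201) was bound (20.0%). In lists this small 1 gene moves a share widely.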

How the data were processed

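ChIP-seq peak lists of CG12768-GFP from whole adult males, 2 biological replicates, were used on dm6. Per the file headers and accompanying notes, the authors deposited lists of peaks and background for each replicate and for both pooled (30000 peaks each), and 1 list thresholded by irreproducible discovery rate (6066 peaks). The notes derive these lists from the alignments and a further file, from which control-normalized signal was also made. The control itself was not used here. DNA was sonicated to 200-800 bp, per the labels. No aligner or peak caller is named there. The deposited signal of each peak, of unstated scaling, ranked peaks within a list; the deposited −log10 q-value is saturated at its highest value in 4776 thresholded peaks. The thresholded peaks are the 6066 leading peaks of the pooled list. The dm3 lists were not used.

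Summits (column 2 plus column 10) were compared with starts of protein-coding transcripts of Ensembl release 115, whose genes lie within the dm6 arms. Words of the promoters were read from the RefSeq Release 6 genome. The members and lists were chosen with earlier results of these data known, and no set test was made. Other pathway genes were matched by symbol and absent symbols left out. Each bound member is given in full, each unbound one by its best rank or distance, and of each other list the 4 strongest. Printed sequences are from bound members outside 2R and outside transcribed sequence. The intronic sequence of Prim1, the DRE sequences of members not bound, the divergent pairs and the replicate order were added after their values were seen. The assignment of summits to starts was checked on simulated peaks. Python 3.11.15, NumPy 2.4.6 and matplotlib 3.10.9 were used.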

Additional observations from a re-analysis of the deposited data

How the results depend on the processing

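The count of bound replication genes lay between 8 and 15 of 39 under all 10 alternatives. It was 10 at 250 bp (lost: Prim1 and PolD1) and 13 at 1000 bp (gained: Cdc45), against 21.6% and 29.7% of all genes. It was 9 in the 3033 peaks of highest signal, against 15.4% of all genes, and 10 in the peaks at the highest −log10 q-value, against 21.9%. It was 8 where a summit counted for the closest start alone, 8 where the peak had to cover a start, and 12 with gene record starts, against 23.1%. No 2 members lay within 10 kb, so counting such pairs once left 12. With nearest starts the share was 20.5%, equal to that of all genes, and with covered starts 20.5% against 19.0%. In the 3033 strongest peaks 2 helicase genes, 12 of the other pathway genes and 2152 of all genes were bound. Polymerase and primase genes fell to 1 of 8 at 250 bp, with nearest starts and with covered starts; CycE was 0 with covered starts, and the other pathway genes numbered 13 with nearest starts. Leaving out a replicate gave 9 to 15 members, 3 to 5 origin genes and 2 to 5 helicase genes. An E2F word was at 2 of 13 summits within 50 bp, against 2.14% of promoter summits, and GAGA was in 3 bound promoter windows. Depth is unknown, so a weak peak below the threshold is not shown to be absent. No paired analysis was possible because there is 1 group.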

Other observations

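By chromosome arm, the bound share of replication genes was highest on 2R, with 5 of 10 (dpa, Orc1, dup, geminin and RnrS), against 27.7% of all genes on that arm. It was 3 of 8 on 3L, against 28.5%, 2 of 8 on 3R, against 28.4%, 1 of 8 on 2L, against 24.9%, and 1 of 5 on X, where 17.8% of all genes were bound. The X genes Mcm3, Mcm6, RPA3 and Cdc45 were not bound. Genes with more than 1 annotated start were bound more often than those with 1: 5 of 9 replication genes, against 43.4% of all such genes, and 7 of 30 with 1 start, against 19.6%. With gene record starts alone the same 12 replication genes were bound, and 23.1% of all genes. The reason for the contrast was not tested.

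The promoters of 10 replication genes had no summit among the 30000 peaks of either replicate or of the pooled list: Mcm3, Mcm6, Mcm7, Orc5, Orc6, RnrL, PolE2, RfC4, Gnf1 and RPA2. That is 25.6% of the list, against 36.2% of all genes. The distance to the nearest thresholded summit over the 27 genes not bound ran from 941 to 42296 bp, with a median of 5893 bp. The strongest of these neighbouring peaks lay 5635 bp from Orc5 (signal 1700.4, rank 38) and 3723 bp from Orc4 (signal 1395.9, rank 76).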
